A study of Mus musculus with 32 samples.

Results

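The response of wild type mouse embryonic fibroblasts to irradiation was followed in 8 RNA extracts, 4 from irradiated and 4 from unirradiated cells. Members were taken by their labels: samples described as wild type with titles in WT, and samples described as wild type and irradiated with titles in WTR. Each extract was hybridised to 2 Affymetrix array types, called array A and array B here, which gave 16 of the 32 samples of the series. The other 16 samples came from Oct-1 mutant fibroblasts with and without irradiation and serve below only for comparison and for the shared estimate of spread. Oct-1, encoded by Pou2f1, is a POU domain transcription factor, whose own RNA was not analysed here because the annotation used assigns no probe set to it alone. All samples were total RNA from early passage primary cultures, that is, cells grown out of embryos and not an established line. The kind and dose of radiation, the time between irradiation and harvest, the strain, the embryonic age, the Oct-1 allele and the number of embryos behind the cultures were not stated in the labels. What separates one replicate from another is not stated either, so the p-values cover only the variation among these extracts, which may be technical.

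Radiation damages DNA, and the kinases ATM, ATR, CHK1 and CHK2 pass the signal on to the transcription factor p53. In undamaged cells p53 is kept low by MDM2, a ubiquitin ligase that is itself a p53 target, so that the response switches itself off. Stabilised p53 turns on genes for arrest, death, metabolism and repair, among them Cdkn1a, whose product p21 inhibits cyclin-dependent kinases. When these kinases are inhibited, the DREAM complex of RB-family and E2F proteins can repress genes for mitosis, many of which carry CCAAT boxes and a cell cycle genes homology region, or CHR, near their start. Primary fibroblasts are known to answer radiation mostly by arrest rather than by death.

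The title numbers of the extracts fall into 2 runs, and replicates 1 and 2 of each group belong to the first number run and replicates 3 and 4 to the second. The median log2 level of a wild type sample was 6.17 to 6.26 for array A, while array B gave medians of 3.66 to 3.73. The lowest and highest correlations between replicates were 0.9795 and 0.9958 for array A, and 0.9828 and 0.9959 for array B. The deviations of samples from their group means followed the number run, so the run was a term in the model. For the Gapdh control, 3′ minus 5′ signal, a sign of RNA integrity, ranged from -0.22 to 0.03 in unirradiated and from -0.21 to 0.12 in irradiated samples on array A. For arrays the number of samples, 4 per group and array type, limits the precision.

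Irradiation changed more probe sets on array A than on array B. On array A, 798 of 13576 tested probe sets rose and 591 fell, which is 5.88% and 4.35% of those tested, and 10.2% in either direction. On array B, 186 of 13507 rose and 57 fell, or 1.38% and 0.422%, together 1.8%. A probe set was called when its adjusted p from limma was under 0.05, with Benjamini-Hochberg adjustment over each array type. The calls named 618 genes higher and 451 lower on array A, and 152 higher and 46 lower on array B. Most changes were moderate: the median log2 difference of called probe sets was 0.39 for rises and -0.39 for falls on array A, and 63 rises and 23 falls reached a log2 difference of 1 or more in size. On array B the called medians were 0.61 and -0.67. The median over all tested probe sets was 0.01 on array A and 0.0 on array B. Without the number run in the model the calls dropped to 317 higher and 204 lower for array A, and to 82 and 22 for array B. Each of these was also called with the run in the model. With quantile normalization, the split on array B was 164 higher and 95 lower in place of 186 and 57. Unless a sentence says otherwise, each call named with its values below was kept when any 1 of the 16 extracts was left out of the fit.

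**Figure D1:**
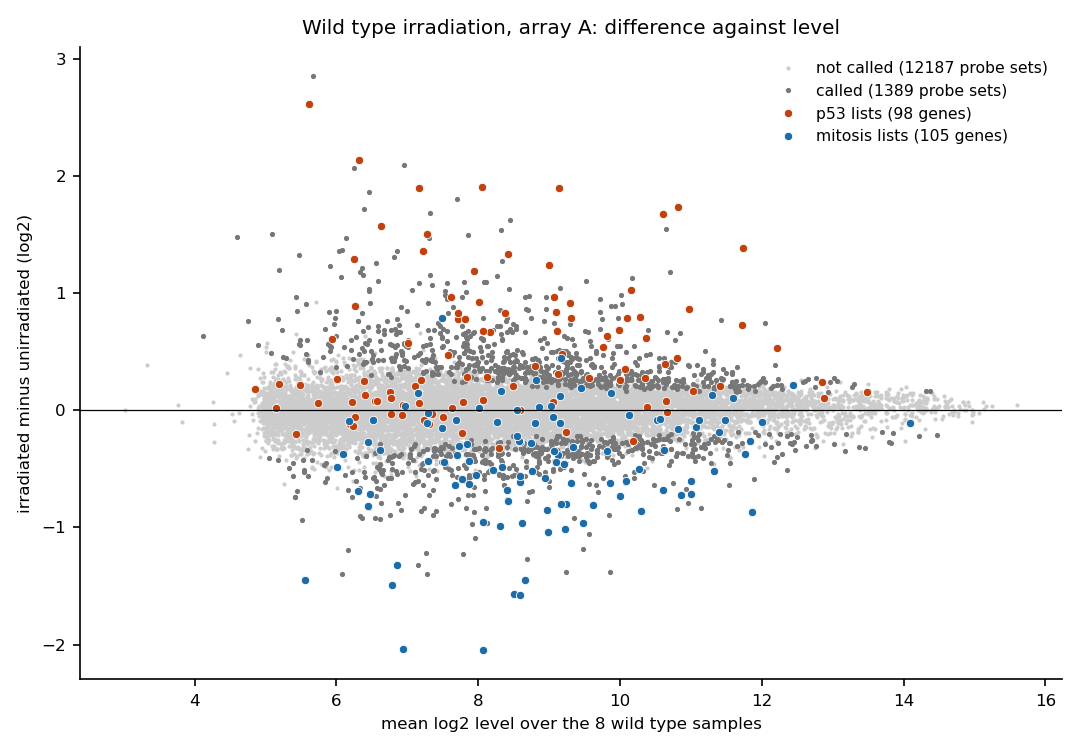
Log2 difference between irradiated and unirradiated wild type samples (vertical axis) against the mean log2 level over the 8 wild type samples (horizontal axis) for the 13576 tested probe sets of array A. Grey points are probe sets, orange points the 98 measured genes of the p53 lists and blue points the 105 genes of the mitosis lists, each gene at its probe set of highest mean; 48 of the p53 genes were called above 0 and 59 of the mitosis genes below it.

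Many genes known as p53 targets rose. Of 98 measured genes on the 6 p53 lists, 48 rose (49.0%) and 2 fell on array A, against 5.88% and 4.35% of all probe sets tested, and their median log2 difference was 0.29. On array B 9 of 27 rose (33.3%) and 0 fell, against 1.38% and 0.422% of all probe sets, with a median of 0.29. These lists were assembled from general knowledge with earlier results of the same data in view, so their direction is a description and not independent evidence.

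Regulators of p53 itself formed the p53 feedback list, of which 13 of 18 genes were measured on array A. Of these, 7 rose, 1 fell and 5 were not called. Mdm2 (probe set 1427718_a_at, chromosome 10) measured 10.16, 10.13, 9.77 and 9.76 in the unirradiated replicates 1 to 4 and 12.3, 12.25, 11.21 and 11.01 in the irradiated ones. All irradiated samples were higher than all unirradiated ones, and the 2 irradiated samples of the first number run stood above those of the second. The difference of 1.74 (SE 0.14) corresponds to a 3.34-fold rise (limma, adjusted p = 1.46e-07), and another Mdm2 probe set rose by 1.55 (SE 0.15). Trp53inp1, a nuclear protein that promotes p53 phosphorylation, measured 9.58, 9.39, 10.1 and 10.0 without and 11.74, 11.63, 11.21 and 11.23 with irradiation. Its groups did not overlap, and the rise was 3.21-fold (log2 1.68, SE 0.16, adjusted p = 1.55e-06).

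Pml, the organiser of PML nuclear bodies, in which p53 is modified, was measured on both array types. On array A it stood at 8.35, 8.52, 8.36 and 8.27 in unirradiated and at 9.68, 9.66, 9.65 and 9.48 in irradiated cells, a 2.37-fold rise (log2 1.24, SE 0.08, adjusted p = 7.06e-09). A separate probe set on array B rose by 1.14 (SE 0.13, adjusted p = 0.000219). Ppm1d, the WIP1 phosphatase that removes activating phosphates from p53 and the damage kinases, rose by 0.78 (SE 0.17) on array A and by 0.68 (SE 0.1) on array B. Smaller rises were those of Rchy1, the ubiquitin ligase PIRH2 (0.64, SE 0.12), Zmat3, an RNA-binding p53 target (0.62, SE 0.08), and Ccng1, cyclin G1 (0.53, SE 0.07). Usp7, the deubiquitinase that protects MDM2 and p53, was the member that fell, by 0.26 (SE 0.06, adjusted p = 0.011), while its other probe set on array A and all 4 on array B were not called. The other 5 were not called, among them Mdm4 (-0.03), the MDM2 relative that inhibits p53, and Cop1 (-0.01), another p53 ubiquitin ligase. Trp53 itself had no probe set assigned to it alone and was not analysed here.

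Of the genes for arrest, 6 of 15 measured on array A rose and 9 were not called. Cdkn1a was read by 2 probe sets on array A. The probe set of higher mean (1424638_at, chromosome 17) measured 10.74, 10.72, 11.26 and 11.44 without and 12.49, 12.38, 12.42 and 12.44 with irradiation, a 2.62-fold rise (log2 1.39, SE 0.12, adjusted p = 3.85e-07). The irradiated samples lay close together, while the unirradiated ones split by number run. Its other probe set rose by 2.1 (SE 0.15). Btg2, an antiproliferative adaptor of mRNA deadenylation, measured 9.41, 9.41, 9.78 and 9.94 and then 10.56, 10.5, 10.86 and 10.74, a 2.04-fold rise (log2 1.03, SE 0.08, adjusted p = 1.45e-07). Rprm, or reprimo, which is linked to arrest before mitosis, rose 2.84-fold, from 6.52, 6.39, 6.5 and 6.68 to 7.8, 8.49, 7.68 and 8.14. Gtse1, a microtubule-associated protein that binds p53, rose by 0.93 (SE 0.14), and Ckap2, a spindle protein, by 0.79 (SE 0.08). Both are otherwise grouped with mitotic genes, which as described below mostly moved the other way. Gadd45a, a stress gene often used as a radiation marker, gave 0.08 (SE 0.11, adjusted p = 0.727), and its groups overlapped. On array B Cdc42bpg, a CDC42-binding kinase, rose by 1.58 (SE 0.22).

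Among the death genes, 11 of 20 measured on array A rose and 1 fell. The member that fell, named after its values were seen, was the BH3-only gene Bid (-0.32, SE 0.1, adjusted p = 0.0444), whose call was lost without any 1 of 10 extracts, with an adjusted p of up to 0.155. Pmaip1, the BH3-only protein NOXA, measured 4.57, 4.75, 5.84 and 5.86 in unirradiated cells and 6.96, 7.5, 7.52 and 7.57 in irradiated cells. Groups did not overlap, and the rise was 4.39-fold (log2 2.14, SE 0.19, adjusted p = 7.21e-07). Bbc3, the BH3-only protein PUMA, rose less, by 0.78 (SE 0.09), from 7.39, 7.25, 7.62 and 7.4 to 8.17, 7.91, 8.35 and 8.37. Dapk1, a calmodulin-dependent death-associated kinase, measured 6.34, 6.33, 6.22 and 5.96 and then 8.01, 8.44, 8.0 and 8.01, a 3.74-fold rise (SE 0.12 on the log2 scale, adjusted p = 1.32e-08). Fas, the death receptor, rose 2.56-fold (log2 1.36, SE 0.2), and Perp, a membrane protein of desmosomes, rose 2.45-fold (log2 1.29, SE 0.15). Apaf1, the scaffold of the apoptosome, rose by 0.97 (SE 0.1), Ei24 by 0.87 (SE 0.06) and Siva1 by 0.69 (SE 0.06). On array B Eda2r, a receptor of the tumour necrosis factor family, measured 7.67, 7.79, 8.05 and 8.29 and then 10.02, 9.91, 9.32 and 9.38, a 3.28-fold rise. Bax had no probe set assigned to it alone and was not analysed here.

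Metabolic p53 targets also rose. Of 20 measured on array A, 12 rose and 8 were not called, with a median of 0.48. Dcxr, a carbonyl and xylulose reductase, measured 8.16, 8.08, 8.34 and 8.18 without and 10.08, 9.93, 10.27 and 10.09 with irradiation. The 3.74-fold rise had an SE of 0.07 on the log2 scale and an adjusted p of 3.42e-11. Ddit4l, an inhibitor of mTORC1 signalling, was read by 2 probe sets of array A and by 1 of array B. It rose in each, by 1.91 (SE 0.19), 2.07 (SE 0.25) and 1.13 (SE 0.15). The probe set of higher mean stood at 9.68 and 9.31 in the irradiated samples of the first run and at 8.57 and 8.46 in those of the second, against 6.85 to 7.25 in all unirradiated samples. Lpin1, a phosphatidate phosphatase, rose by 1.58 (SE 0.21), and Sesn2, a stress sensor that restrains mTORC1, rose by 0.97 (SE 0.14). Its relative Sesn1 gave -0.03 and was not called. Slc19a2, a thiamine transporter, rose by 0.92 on array A and by 1.0 on array B. Ddit4 (0.79), Abhd4 (0.8), Ak1 (0.54) and Ephx1 (0.45) also rose on array A.

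Repair genes known as p53 targets changed in few cases: 3 of 10 measured on array A rose. Polk, a translesion polymerase, rose 2.54-fold (log2 1.34, SE 0.14), from 7.45, 7.44, 8.21 and 7.9 to 9.14, 9.19, 8.87 and 9.17. Ercc5, the excision repair nuclease XPG, rose 2.29-fold, from 7.26, 7.12, 7.52 and 7.48 to 8.52, 8.66, 8.37 and 8.6. Pcna, the sliding clamp of replication, rose by 0.24 (SE 0.05, adjusted p = 0.00619). Xpc (0.23), Polh (-0.2) and Rrm2b (0.16) were not called on array A.

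The last p53 list joined signalling genes, of which 9 of 20 rose on array A. Tap1, the peptide transporter of antigen presentation, measured 4.5, 4.46, 4.23 and 4.01 in unirradiated and 7.21, 6.88, 6.6 and 7.0 in irradiated cells, a 6.15-fold rise (log2 2.62, SE 0.18, adjusted p = 2.13e-08). All its unirradiated values lay under 4.97, the lowest mean over all 16 samples that was kept for testing on array A. Klf4, a zinc finger factor linked to arrest, rose by 0.84 (SE 0.1), and Ptp4a3 and Zfp385a rose by 0.83 each (SE 0.1 and 0.13). Phlda3, an inhibitor of AKT, rose by 0.73 (SE 0.08), and the receptors Epha2 and Notch1 by 0.68 each (SE 0.1 and 0.14), while another Notch1 probe set gave 0.36 and was not called. On array B Zfp365, a target gene linked to the stability of replicating DNA, measured 7.63, 7.69, 7.53 and 7.69 and then 9.64, 9.71, 9.36 and 9.36, a 3.68-fold rise. Its other probe set there rose by 2.09 (SE 0.3).

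The promoters of 45 of the 53 p53-list genes called higher on either array were found in RefSeq's table for GRCm38.p6, which holds 250 bases before and 50 after each annotated start. A p53 response element, searched on both strands as a pair of decamers up to 13 bases apart with at most 2 mismatches in 20 positions and none in the core of either decamer, was found in 5 of their 58 promoters (8.62%), against 2.12% of all 32851 promoters of the same length. Of the genes holding such an element 4 are shown, since they place the letters of the element beside genes that rose. Not every promoter with an element is shown, and the genes shown need not be those with the largest rises. Capitals mark the decamers of each match, which can overlap.
Zfp365, chr10:67912613-67912912, minus strand: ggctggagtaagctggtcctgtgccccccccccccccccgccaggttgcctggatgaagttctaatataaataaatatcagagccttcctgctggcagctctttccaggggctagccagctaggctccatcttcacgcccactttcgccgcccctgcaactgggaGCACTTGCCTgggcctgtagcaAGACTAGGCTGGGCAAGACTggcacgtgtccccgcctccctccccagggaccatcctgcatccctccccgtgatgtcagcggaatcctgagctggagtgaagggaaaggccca
Cdkn1a, chr17:29090729-29091028, plus strand: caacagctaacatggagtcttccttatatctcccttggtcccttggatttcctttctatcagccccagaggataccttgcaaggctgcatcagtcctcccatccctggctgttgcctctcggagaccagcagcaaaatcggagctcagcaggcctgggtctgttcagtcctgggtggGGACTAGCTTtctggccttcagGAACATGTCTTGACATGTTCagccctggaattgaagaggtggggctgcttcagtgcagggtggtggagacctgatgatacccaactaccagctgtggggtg
Pml, chr9:58249737-58250036, minus strand: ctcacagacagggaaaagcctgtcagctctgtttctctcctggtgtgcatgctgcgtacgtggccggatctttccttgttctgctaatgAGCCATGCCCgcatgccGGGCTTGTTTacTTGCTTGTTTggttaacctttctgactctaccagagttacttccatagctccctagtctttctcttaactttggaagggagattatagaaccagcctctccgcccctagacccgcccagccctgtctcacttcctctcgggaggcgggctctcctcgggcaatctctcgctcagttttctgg
Gtse1, chr15:85859696-85859995, plus strand: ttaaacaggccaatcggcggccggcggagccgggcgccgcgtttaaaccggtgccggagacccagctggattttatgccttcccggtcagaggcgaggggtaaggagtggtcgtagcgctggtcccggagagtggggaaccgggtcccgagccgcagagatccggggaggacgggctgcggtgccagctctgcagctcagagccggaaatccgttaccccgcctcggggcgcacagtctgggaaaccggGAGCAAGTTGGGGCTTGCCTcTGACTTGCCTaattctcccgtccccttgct
In Cdkn1a the best match had 0 mismatches with 12 bases between its decamers. Pml and Gtse1 had 1 mismatch, and Zfp365 had 2. The best matches began at -73 in Cdkn1a, -161 in Pml, -1 in Gtse1 and -63 in Zfp365, with the annotated start at 0. Where a gene had several annotated starts, the promoter shown was the first that held an element. These positions therefore need not refer to the main start of the gene. A match is a description of letters and not of binding, and sequence farther from the start was not searched.

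The largest rises outside the lists were led by a gene of array B. The probe set of 1700007K13Rik (1428705_at, chromosome 2), the gene also known as Pierce1, which was described as a p53 target linked to motile cilia, measured 3.45, 3.06, 3.46 and 3.48 in unirradiated cells and 7.91, 7.9, 7.64 and 7.39 in irradiated cells. Every irradiated sample was far above every unirradiated one. The difference of 4.35 (SE 0.2) amounts to 20.3-fold (adjusted p = 5.41e-08), the largest among the named genes. Unirradiated values lay near 3.36, the lowest mean kept on array B, so they cannot be told from the bottom of the scale, and the fold depends on that floor. Further rises on array B were those of Trim7, a ubiquitin ligase (2.19, SE 0.19), and Tbc1d2, which regulates RAB GTPases (1.93, SE 0.23). Mapkapk3, a kinase downstream of p38, rose by 1.9 (SE 0.35), 9230114K14Rik by 1.89 (SE 0.16), Dennd2c, a RAB activator, by 1.78 (SE 0.26), and Wnt9a, a WNT ligand, by 1.74 (SE 0.2). For Dennd2c the irradiated values were 7.94 and 8.15 in the first and 7.17 and 6.38 in the second.

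On array A the widest rise was that of Arap2, a GTPase-activating protein for ARF6. It measured 3.94, 3.48, 4.74 and 4.81 in unirradiated and 7.24, 7.35, 6.81 and 7.0 in irradiated cells (log2 2.86, SE 0.25, adjusted p = 5.9e-07). Its unirradiated values were all under 4.97, and 2 other probe sets of the gene on array B gave 0.51 and 0.09 and were not called. Dcaf4, a substrate adaptor of a ubiquitin ligase, rose 3.5-fold, from 6.23, 6.82, 7.09 and 7.04 to 8.66, 8.81, 8.55 and 8.4. Tmem19, a membrane protein, rose 3.22-fold (log2 1.69, SE 0.1), and its 4 unirradiated values lay between 6.32 and 6.56.

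**Figure D2:**
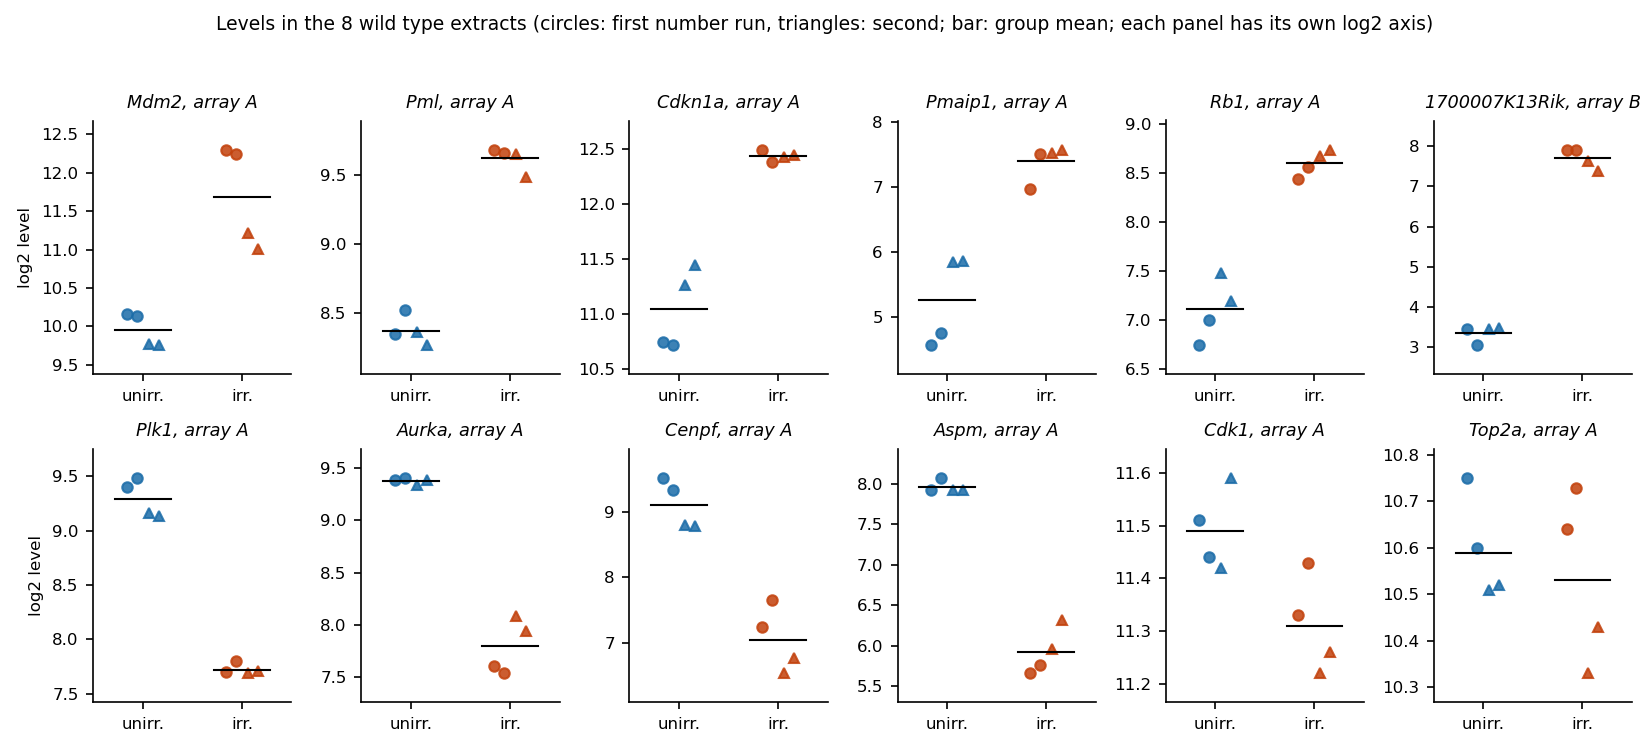
Log2 levels of 12 genes in the 4 unirradiated (blue) and 4 irradiated (orange) wild type extracts, circles for replicates 1 and 2, triangles for replicates 3 and 4, bars for group means, each panel on its own axis. All 6 genes of the upper row and Plk1, Aurka, Cenpf and Aspm in the lower row separate without overlap, while the values of Cdk1 and Top2a overlap.

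Many genes for mitosis fell. Of 105 measured genes on the 4 mitosis lists, 59 fell (56.2%) and 4 rose on array A, against 4.35% and 5.88% of all probe sets, with a median log2 difference of -0.38. On array B 15 of 61 fell (24.6%) and 0 rose, against 0.422% and 1.38%, with a median of -0.28. In such bulk samples fewer cells in mitosis and less RNA per cell cannot be told apart.

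Of the regulators of mitotic entry, 14 of 28 measured on array A fell and 0 rose, with 1 higher at an unadjusted p under 0.05, and on array B 2 of 10 fell. Plk1, the polo kinase that drives entry into mitosis (1448191_at, chromosome 7), measured 9.4, 9.48, 9.16 and 9.13 without and 7.7, 7.8, 7.69 and 7.71 with irradiation, a 2.96-fold fall (log2 -1.57, SE 0.07, adjusted p = 1.88e-10). Groups did not overlap, and the irradiated samples lay close together. Aurka, the spindle pole kinase that activates PLK1, measured 9.38, 9.4, 9.34 and 9.38 and then 7.61, 7.54, 8.09 and 7.94, a 2.98-fold fall (log2 -1.58, SE 0.1). Bora, the cofactor of that activation, fell by 0.99 (SE 0.15) on array B, so that both partners of the step and their substrate were lower. Cdc25b, a phosphatase that activates CDK1, fell 2.5-fold, from 7.85, 7.78, 7.18 and 7.27 to 6.37, 6.37, 6.09 and 5.98, and its relative Cdc25c fell by 0.82 (SE 0.13). Further falls were those of Cks2, a CDK subunit (-0.87, SE 0.07), Cdc20, the activator of the anaphase-promoting complex (-0.71, SE 0.07), and the centrosomal kinase Nek2 (-0.69, SE 0.11, and -0.88, SE 0.09, on array B). Ccna2, cyclin A, fell by 0.6 (SE 0.07).

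Several central members of the same list did not pass the test. Cdk1, the mitotic kinase itself, measured 11.51, 11.44, 11.42 and 11.59 and then 11.33, 11.43, 11.22 and 11.26, a difference of -0.18 (SE 0.07, adjusted p = 0.114), and its groups overlapped. Foxm1, the factor that activates many of these genes, gave -0.3 (SE 0.12, adjusted p = 0.115), and its other 2 probe sets gave -0.06 and -0.09. Mybl2, which activates genes of the same class, gave -0.09 (SE 0.1), Aurkb, the kinase of the chromosomal passenger complex, -0.1, and Ube2c, a ubiquitin-conjugating enzyme of the anaphase-promoting complex, -0.14. Ccnb1 had no probe set assigned to it alone and was not analysed here.

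Kinetochore and checkpoint genes divided between falls and values near 0. Of 30 measured on array A, 13 fell, 2 rose and 15 were not called, while on array B 6 of 23 fell and 17 were not called. The 2 that rose, named after their values were seen, were Cenpt, which links centromeres to the outer kinetochore (0.45, SE 0.08, adjusted p = 0.00183), and Spc25, of the NDC80 complex (0.26, SE 0.07), whose call was lost without either of 2 extracts, with an adjusted p of up to 0.0642. Cenpf (1427161_at, chromosome 1), a large protein of the outer kinetochore, measured 9.51, 9.33, 8.79 and 8.78 and then 7.24, 7.66, 6.54 and 6.77, a 4.15-fold fall (log2 -2.05, SE 0.16, adjusted p = 1.64e-07). Both number runs showed the fall, and the groups did not overlap. Its probe set on array B gave -0.5 (adjusted p = 0.124). Cenpe, a kinetochore motor, fell by 1.45 (SE 0.21) on array A and by 0.78 (SE 0.1) on array B. Bub1b, the checkpoint protein BUBR1, fell by 0.96 (SE 0.11) and by 1.02 (SE 0.1) on the respective arrays. Ttk, the kinase that starts the checkpoint, fell by 0.77 (SE 0.07), Cenpa, the centromeric histone, by 0.73 (SE 0.09) and Incenp, of the passenger complex, by 0.62 (SE 0.08). On array B Cdca8, or borealin, another passenger protein, fell by 0.69 (SE 0.07). The members Mad2l1 (-0.08), Bub3 (-0.08) and Zwint (0.13) were not called.

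Of the spindle and cytokinesis genes, 22 of 26 measured on array A fell, 2 rose and 2 were not called, with a median of -0.69. On array B 5 of 18 fell and 13 were not called, with a median of -0.39. Aspm (1422814_at, chromosome 1), which focuses spindle poles, measured 7.93, 8.07, 7.92 and 7.92 and then 5.66, 5.76, 5.96 and 6.32, a 4.1-fold fall (log2 -2.04, SE 0.16). Its 2 probe sets on array B gave -0.82 and -0.33 without a call. Depdc1a, a spindle-associated protein, measured 7.61, 7.69, 7.7 and 7.1 and then 5.94, 6.08, 6.06 and 6.05, a 2.82-fold fall. The motor Kif2c, which takes microtubules apart at kinetochores, fell by 1.45 (SE 0.11), and Kif20a, of the central spindle, by 0.96 (SE 0.07). Kif23, a partner of Racgap1 in cytokinesis, fell by 1.32 (SE 0.21) and 0.85 (SE 0.1) in its 2 probe sets, and Racgap1 by 0.8 (SE 0.07). Hmmr fell by 0.72 to 1.22 over 4 probe sets, and Cep55, which acts at the last cut between daughter cells, fell by 1.01 (SE 0.09). Tpx2, the activator of Aurora A at the spindle, fell by 0.8 (SE 0.07) and the contractile ring protein Anln by 0.68 (SE 0.06).

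On array B Gas2l3, which links actin and microtubules at cytokinesis, fell in all 3 of its probe sets, by 1.64 (SE 0.14), 1.8 (SE 0.12) and 2.05 (SE 0.17). The probe set of highest mean measured 8.99, 9.07, 8.28 and 8.05 and then 7.26, 7.28, 6.57 and 6.7. Depdc1b fell by 1.41 (SE 0.23), the motor Kif20b by 0.98 (SE 0.09) and Ckap2l by 0.73 (SE 0.1). The spindle genes that rose on array A, named after their values were seen, were the motor Kifc1 (0.79, SE 0.22, adjusted p = 0.0293) and the tubulin Tubb4b (0.22, SE 0.06). The first call was lost without any 1 of 5 extracts and the second without any 1 of 6, with an adjusted p of up to 0.0992 for Kifc1 and 0.0826 for Tubb4b.

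Of the chromosome structure genes, 10 of 21 measured on array A fell and 0 rose, with 1 higher at an unadjusted p under 0.05, and on array B 2 of 10 fell. Mki67, the proliferation marker Ki-67 that coats mitotic chromosomes, measured 10.92, 10.76, 10.65 and 10.55 and then 9.86, 10.01, 9.88 and 9.68, a 1.82-fold fall (log2 -0.86, SE 0.08). Hmgb2, a chromatin protein, fell by 0.72 (SE 0.06), the cohesin subunit Rad21 by 0.6 (SE 0.1) and Kpna2, an importin, by 0.52 (SE 0.07). Top2a, the topoisomerase that separates sister chromatids, measured 10.75, 10.6, 10.51 and 10.52 and then 10.64, 10.73, 10.33 and 10.43, so that its groups overlapped (-0.07, SE 0.06, adjusted p = 0.595). On array B Espl1, or separase, fell by 0.69 (SE 0.13).

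Promoters were found for 57 of the 68 mitosis-list genes called lower on either array and for 53 of the 66 other measured members. The CHR letters TTTGAA or TTCGAA, searched on both strands, were present in 45 of 62 promoters of the genes called lower (72.6%), in 31 of 59 promoters of the other members (52.5%) and in 19.2% of all promoters of that length. CCAAT was present in 75.8%, 55.9% and 37.4% respectively. Both together were in 61.3% of the promoters of genes called lower, in 33.9% of those of the other members and in 7.52% of all. The 4 genes with the largest falls among those holding a CHR are shown, each by its first listed promoter with a CHR. The presence of CCAAT and the places of the motifs played no part in this choice. Capitals mark CCAAT, or ATTGG on the other strand, and the CHR.
Cenpf, chr1:189688037-189688336, minus strand: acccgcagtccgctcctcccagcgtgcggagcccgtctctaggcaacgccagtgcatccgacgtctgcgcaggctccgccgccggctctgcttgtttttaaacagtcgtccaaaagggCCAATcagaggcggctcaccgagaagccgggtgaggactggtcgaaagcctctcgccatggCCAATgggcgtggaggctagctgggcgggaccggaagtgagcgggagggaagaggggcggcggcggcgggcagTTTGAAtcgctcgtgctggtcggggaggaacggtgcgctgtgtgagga
Aspm, chr1:139454523-139454822, plus strand: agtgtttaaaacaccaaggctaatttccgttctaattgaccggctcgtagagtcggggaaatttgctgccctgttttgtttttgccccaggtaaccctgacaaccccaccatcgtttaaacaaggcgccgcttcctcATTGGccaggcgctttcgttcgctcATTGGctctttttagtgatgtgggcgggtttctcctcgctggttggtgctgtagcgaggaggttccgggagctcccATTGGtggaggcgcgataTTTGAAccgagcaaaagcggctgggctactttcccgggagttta
Gas2l3, chr10:89443918-89444217, minus strand: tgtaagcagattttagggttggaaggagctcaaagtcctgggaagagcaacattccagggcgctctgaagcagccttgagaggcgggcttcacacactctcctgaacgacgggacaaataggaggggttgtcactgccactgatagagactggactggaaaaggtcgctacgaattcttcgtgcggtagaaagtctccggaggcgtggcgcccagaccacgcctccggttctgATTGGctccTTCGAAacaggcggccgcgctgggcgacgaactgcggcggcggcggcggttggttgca
Aurka, chr2:172370521-172370820, minus strand: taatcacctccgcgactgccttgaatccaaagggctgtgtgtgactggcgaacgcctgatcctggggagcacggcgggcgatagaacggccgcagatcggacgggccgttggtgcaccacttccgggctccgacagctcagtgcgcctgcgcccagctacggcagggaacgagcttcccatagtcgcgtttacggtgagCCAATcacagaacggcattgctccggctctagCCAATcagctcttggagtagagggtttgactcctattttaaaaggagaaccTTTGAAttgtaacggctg
The CHR began 2 bases after the annotated start in Cenpf, 6 after in Aspm, 32 after in Aurka and at -8 in Gas2l3. CCAAT began at -132 and -71 in Cenpf, at -113, -88 and -12 in Aspm, at -51 and -19 in Aurka and at -17 in Gas2l3. Positions count from the annotated start as 0, and the motifs do not overlap each other in these windows. Motif letters are a description of the sequence and not of binding.

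Regulators of the step from G1 into S phase changed in both directions. Of 26 measured on array A, 4 rose and 3 fell, with 5.88% and 4.35% of all probe sets as the background, while 0 of 10 were called on array B, with 1 higher at an unadjusted p under 0.05. On array A the counted call of Ccne2 was lost without any 1 of 5 extracts and that of Tfdp1 without 1. Rb1, the retinoblastoma protein that holds E2F factors in check (1417850_at, chromosome 14), measured 6.75, 7.0, 7.48 and 7.2 without and 8.44, 8.56, 8.68 and 8.74 with irradiation, a 2.82-fold rise (log2 1.5, SE 0.13, adjusted p = 3e-07). Its relatives Rbl1 (0.04) and Rbl2 (0.13) were not called. E2f1, the activating partner, rose by 0.34 (SE 0.07, adjusted p = 0.00325), while its other probe set gave 0.26 and was not called, and E2f5, a repressing member, fell by 0.55 (SE 0.11). Among the inhibitors of cyclin-dependent kinases, Cdkn1a rose as described, but Cdkn2d, or p19INK4d, fell 1.85-fold, from 8.05, 7.83, 7.7 and 7.65 to 6.76, 6.83, 7.01 and 7.09. Cdkn1b, or p27, fell 1.82-fold, from 8.81, 8.34, 8.24 and 8.1 to 7.76, 7.54, 7.35 and 7.36. For both the groups did not overlap. Cdkn2a, which encodes p16 and p19ARF, measured 5.16, 5.65, 6.39 and 6.14 and then 5.6, 5.74, 5.95 and 6.13 (0.02, SE 0.14), so that it varied more between runs than with irradiation. Ccne1, cyclin E1, gave 0.05 on array A and -0.02 on array B. Ccnd1, cyclin D1, differed between its probe sets: the one of highest mean gave 0.18 (SE 0.1, adjusted p = 0.261), and the others rose by 0.29 (SE 0.07) and 0.45 (SE 0.09). The former call was lost without any 1 of 3 extracts, with an adjusted p of up to 0.0738.

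Genes for origin licensing and replication leaned upward by small amounts. Of 52 measured on array A, 12 rose, against 5.88% of all probe sets, 2 fell and 38 were not called, and 41 had a difference above 0, with a list median of 0.12. Pole2, a subunit of the leading strand polymerase, rose by 0.52 (SE 0.09), Tipin, of the fork protection complex, by 0.38 (SE 0.06) and Mcm7, of the replicative helicase, by 0.28 (SE 0.05, adjusted p = 0.00209). Mcm7 measured 11.91, 12.06, 11.75 and 11.78 and then 12.28, 12.22, 12.08 and 12.04. The 2 that fell were Dbf4, the activating subunit of the CDC7 kinase, and Ung, the uracil glycosylase. Dbf4 fell 1.85-fold, from 10.47, 10.21, 10.33 and 10.15 to 9.15, 9.33, 9.56 and 9.56, while Cdc7 itself gave 0.05. The fall of Ung (-0.74, SE 0.2, adjusted p = 0.0231) did not hold without any 1 of 4 extracts, where its adjusted p reached 0.0943. The counted calls of Cdc6, Cdt1 and Rrm2 were each lost without any 1 of 2 to 5 extracts. Calls at probe sets of Gmnn, Mcm10 and Orc6 were each lost without any 1 of 5 to 7. Without the number run in the model 4 genes of the list rose on array A, against 2.34% of all probe sets. On array B 2 of 14 rose, against 1.38%, and 0 fell. Those calls, of Gins2 and Dnmt1, were lost without any 1 of 13 and of 7 extracts. The E2F letters TTTCCCGC or TTTGGCGC, searched on both strands, were in 24.6% of the promoters of this list, against 1.56% of all promoters and 9.68% of those of the mitosis genes called lower.

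Genes of the damage checkpoint changed in both directions. Of 18 measured on array A, 2 rose and 2 fell, against 10.2% of all probe sets called in either direction, and on array B 1 of 10 rose, against 1.38%. Chek2, the checkpoint kinase that acts below ATM, rose by 0.56 (SE 0.1), from 6.54, 6.26, 6.81 and 6.45 to 7.07, 6.94, 7.2 and 7.07. H2ax, the histone variant phosphorylated at breaks, fell by 0.62 (SE 0.07), from 11.09, 11.14, 11.02 and 10.98 to 10.71, 10.48, 10.23 and 10.33. Atr, the kinase that answers stalled replication, fell by 0.36 (SE 0.1, adjusted p = 0.0301), from 6.65, 6.93, 6.75 and 6.58 to 6.48, 6.38, 6.1 and 6.5. Rad50, of the complex that binds broken ends, rose by 0.39 (SE 0.11, adjusted p = 0.0348). On array B Rnf168, a ubiquitin ligase that acts at breaks, rose by 0.37 (SE 0.08, adjusted p = 0.0349). The call of Atr was lost without any 1 of 4, with an adjusted p of up to 0.114, that of Rad50 without any 1 of 6, with up to 0.115, and that of Rnf168 without any 1 of 9, with up to 0.118. The kinases Atm (0.07, SE 0.23) and Chek1 (-0.28, SE 0.14) were not called. Of the genes for homologous recombination and the Fanconi pathway, limma called 0 of 17 on array A and 0 of 12 on array B at the probe set of highest mean. At an unadjusted p under 0.05, 3 were higher on array A, and 1 was higher and 1 lower on array B. Of the remaining repair genes 1 of 22 was called on array A, and 0 of 10 on array B, where 1 was higher and 1 lower at an unadjusted p under 0.05. The called gene was Msh6, a mismatch recognition protein, which measured 8.79, 8.82, 8.51 and 8.39 and then 9.98, 10.03, 9.29 and 9.42, a 2.07-fold rise (log2 1.05, SE 0.1, adjusted p = 8.39e-07).

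**Figure D3:**
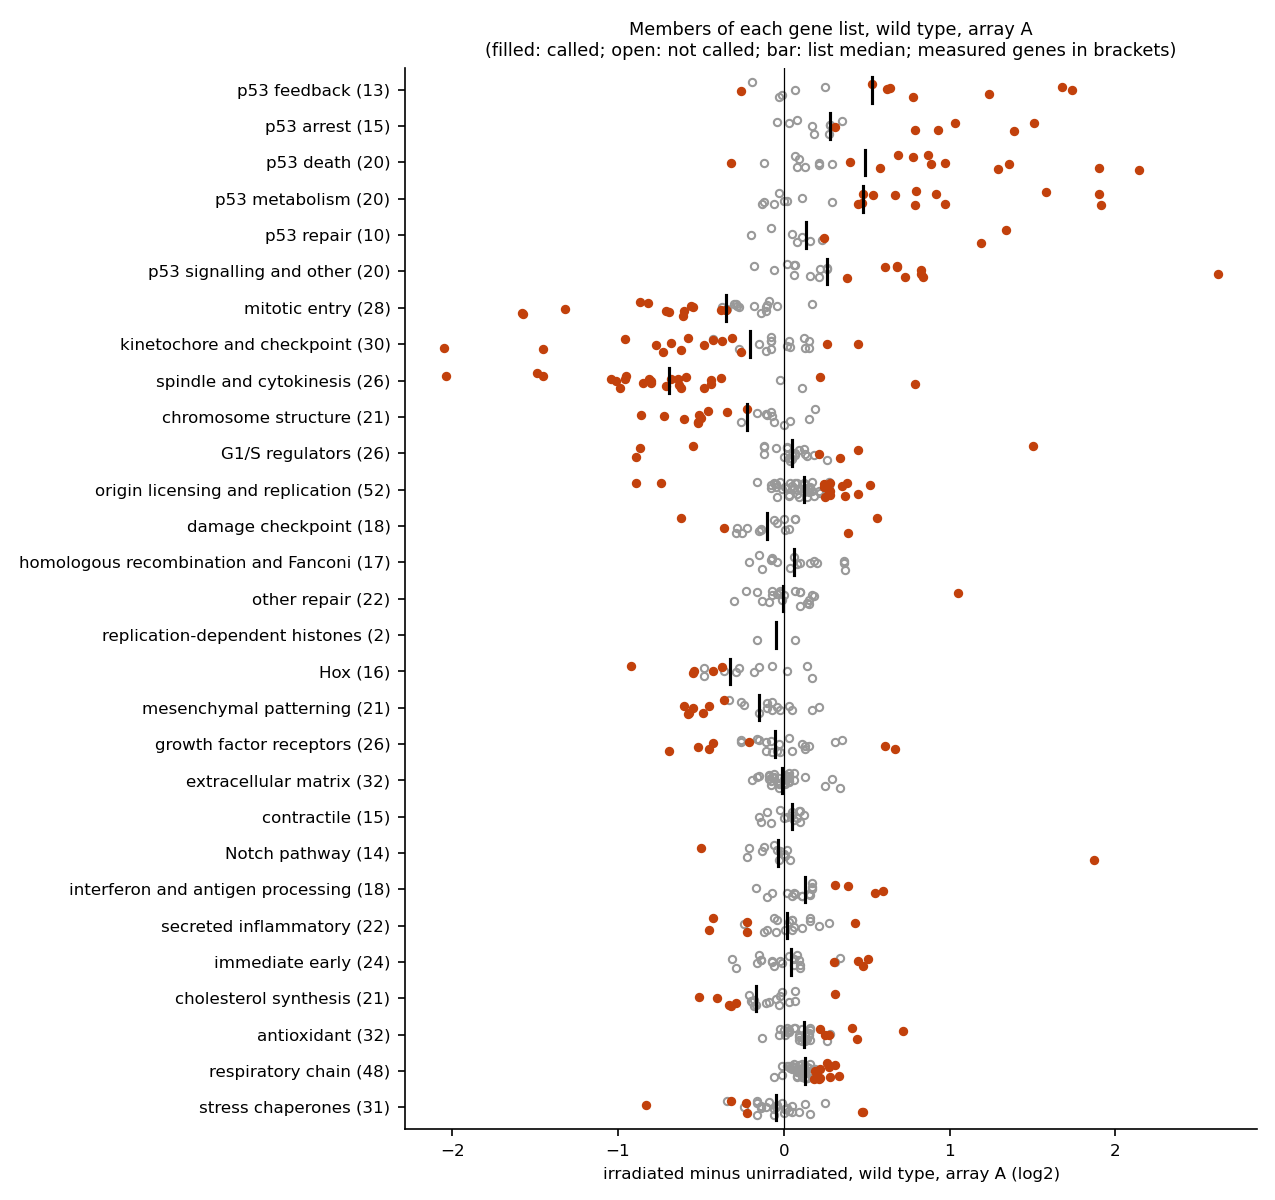
Log2 difference between irradiated and unirradiated wild type samples on array A for each measured gene of the lists, 1 point per gene, filled where called; black bars are list medians and the number of measured genes stands beside each name. The p53 lists extend to the right, with medians from 0.13 to 0.53, and the mitosis lists to the left, with medians from -0.69 to -0.21, while extracellular matrix and contractile genes show no filled point at these probe sets.

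Some genes of embryonic patterning fell. Of 16 Hox genes measured on array A, 5 fell, against 4.35% of all probe sets, and 0 rose, with 8 lower and 0 higher at an unadjusted p under 0.05, and the list median was -0.32. On array B 1 of 8 fell, against 0.422%, and the median was -0.06. That call, of Hoxd13, was lost without any 1 of 8 extracts, with an adjusted p of up to 0.146. On array A the counted calls of Hoxa11 and Hoxd13 were lost without any 1 of 5 and of 7 extracts, with up to 0.143 and 0.13. Hoxa10 measured 7.12, 7.25, 7.04 and 6.62 and then 6.16, 6.15, 5.76 and 6.3, a 1.89-fold fall (log2 -0.92, SE 0.13). Hoxc8 measured 9.63, 9.62, 9.66 and 9.63 and then 9.24, 9.18, 9.16 and 9.24, a smaller fall of 0.43 (SE 0.08) with little spread. Hoxa9 fell by 0.55 (SE 0.13), but its groups overlapped within the second number run. Of 21 mesenchymal patterning genes on array A 7 fell (background 4.35%) and 0 rose, with 1 higher at an unadjusted p under 0.05. On array B 2 of 17 fell, against 0.422% of all probe sets. Foxc1, a forkhead factor, fell by 0.6 (SE 0.13), Twist1 by 0.55 (SE 0.1), Tbx15, of the T-box family, by 0.57 (SE 0.08) and Meis1, a HOX cofactor, by 0.49 (SE 0.1). Prrx1, a homeobox factor of limb mesenchyme, fell on both arrays, by 0.45 (SE 0.06) and 0.67 (SE 0.12). The counted calls of Meis2 and Twist2 on array A were each lost without either of 2 extracts. That of Meis2 on array B was lost without any 1 of 10, with an adjusted p of up to 0.148. Gas1, a membrane protein of growth arrest and hedgehog signalling and the largest fall on array A outside the lists, measured 9.94, 10.15, 8.6 and 8.64 and then 8.54, 8.57, 7.49 and 7.65 (log2 -1.27, SE 0.15).

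Growth factor genes changed in both directions, with 2 of 26 higher and 5 lower on array A, against background shares of 5.88% and 4.35%, so the share that rose was near that of all probe sets. On array B 1 of 10 rose, against 1.38%, and 0 fell. Pdgfra and Pdgfrb, the receptors for platelet-derived growth factor, fell by 0.69 (SE 0.12) and 0.52 (SE 0.08), while the ligand Pdgfa rose by 0.67 (SE 0.08). Pdgfra measured 9.51, 9.36, 8.75 and 8.77 and then 8.22, 8.75, 8.3 and 8.37. Another Pdgfra probe set on array A gave -0.33 and the one on array B -0.07, without a call. Egfr, the epidermal growth factor receptor, rose on array A by 0.61 (SE 0.1) and on array B by 0.77 (SE 0.13). Fgfr2 fell by 0.45 (SE 0.09) and Tgfb2 by 0.43 (SE 0.08). The counted call of Pdgfc was lost without any 1 of 7 extracts, with an adjusted p of up to 0.114. Of 14 Notch pathway genes on array A 1 rose and 1 fell, against 5.88% and 4.35% of all probe sets. Both shares were near that background. On array B 0 of 4 were called, with 0 higher and 0 lower at an unadjusted p under 0.05. Notch3 rose 3.66-fold, from 5.43, 5.46, 6.2 and 5.04 to 7.3, 7.24, 7.38 and 7.69, and Notch1, counted with the p53 genes, rose as described. Notch2 fell by 0.5 (SE 0.14, adjusted p = 0.034), a call lost without any 1 of 6 extracts, with an adjusted p of up to 0.119. The effectors Hes1 (-0.12), Hey1 (-0.22) and Heyl (-0.02) were not called.

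Structural genes of the fibroblast gave few calls. With each gene at its probe set of highest mean, limma called 0 of 32 extracellular matrix genes and 0 of 15 contractile genes on array A. The share of all probe sets called there was 10.2% in either direction. At an unadjusted p under 0.05, 3 matrix genes were higher and 2 lower, and 1 contractile gene was lower. Over all 59 matrix probe sets 2 rose and 1 fell. Those called, named after their values were seen, were 2 probe sets of lower mean of the proteoglycan Vcan (0.28, SE 0.07, and 0.7, SE 0.2) and 1 of the collagen Col3a1 (-0.4, SE 0.1). The Vcan calls were lost without any 1 of 4 and of 7 extracts, with an adjusted p of up to 0.0616 and 0.101, and the Col3a1 call without any 1 of 4, with up to 0.0674. Col1a1, the main chain of type I collagen, measured 14.5, 14.57, 14.52 and 14.71 and then 14.54, 14.4, 14.6 and 14.49. At the probe sets of highest mean, differences over the matrix list ran from -0.19 in Lamb1, a laminin chain, to 0.34 in Dcn, the proteoglycan decorin. On array B 0 of 10 matrix and 0 of 4 contractile genes were called, against 1.8% of all probe sets. There 1 matrix gene was higher and 1 lower at an unadjusted p under 0.05.

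Among stress and metabolic lists, 11 of 48 respiratory chain genes rose on array A, against 5.88% of all probe sets, and 0 fell, and 45 differences were above 0, with a median of 0.13. Ndufb2, of complex I, rose by 0.33 (SE 0.05, adjusted p = 0.000154), from 10.93, 10.91, 11.06 and 11.12 to 11.32, 11.2, 11.43 and 11.4. Cox4i1, of complex IV, rose by 0.28 (SE 0.06). The counted calls of Atp5d, Cox6c, Cox8a, Ndufa1, Ndufa8 and Uqcrc1 were each lost without any 1 of 2 to 4 extracts. Calls at probe sets of Atp5g1, Ndufb7 and Sdhd were each lost without any 1 of 6 or more, with an adjusted p of up to 0.156. Without the number run in the model 2 respiratory chain genes rose on array A, against 2.34% of all probe sets. On array B 0 of 5 were called, with 0 in either direction at an unadjusted p under 0.05. Of 32 antioxidant genes on array A 6 rose (background 5.88%) and 0 fell, with 10 higher and 0 lower at an unadjusted p under 0.05. Gss, glutathione synthetase, rose by 0.72 (SE 0.11), Blvrb, a biliverdin reductase, by 0.44 (SE 0.08) and Taldo1, of the pentose phosphate pathway, by 0.41 (SE 0.08). The counted calls of Gpx8, Gstm1 and Gstm5 were lost without any 1 of 4, of 6 and of 6 extracts. Without the number run in the model 2 antioxidant genes rose, against 2.34% of all probe sets.

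Of 21 genes for cholesterol synthesis and its control on array A 5 fell and 1 rose, with 4.35% and 5.88% of all probe sets as the background. The riser was Abca1, a cholesterol exporter (0.31, SE 0.09, adjusted p = 0.034), whose call was lost without any 1 of 5 extracts, with an adjusted p of up to 0.116. Hmgcs1, an early enzyme of the pathway, fell by 0.51 (SE 0.11), from 12.88, 12.64, 12.5 and 12.45 to 12.03, 12.15, 12.01 and 12.22, and its other 3 probe sets on array A fell by 0.59 to 0.64. Sqle, squalene epoxidase, fell by 0.33 (SE 0.05), Cyp51 by 0.32 (SE 0.07) and Stard4, a sterol carrier, by 0.4 (SE 0.07). The counted call of Msmo1 was lost without 1 extract. On array B 1 of 6 fell, against 0.422% of all probe sets, while Hmgcs1 gave -0.07 and Stard4 -0.12 without a call. That fall, of Insig1, was lost without either of 2 extracts, with an adjusted p of up to 0.0511. Of 18 interferon and antigen processing genes on array A 4 rose (background 5.88%) and 0 fell, with 6 higher and 0 lower at an unadjusted p under 0.05. Ifi35 rose on both arrays, by 0.55 (SE 0.1) and 0.5 (SE 0.09), and Ifitm3, which limits virus entry, by 0.39 (SE 0.07). The chemokine Cxcl10 (0.16) and Ifit2 (-0.1) were not called. The counted call of Irf1 was lost without either of 2 extracts, with an adjusted p of up to 0.0857. Among the immediate early genes 4 of 24 rose on array A (background 5.88%), including Fosl1, an AP-1 subunit (0.51, SE 0.08), and Klf5 (0.48, SE 0.11), while Fos (-0.15), Jun (-0.06) and Egr1 (-0.14) were not called. The counted calls of Dusp1 and Klf10 were lost without any 1 of 4 and of 6 extracts. Of 31 stress chaperone genes on array A 2 rose and 4 fell, again with 5.88% and 4.35% as the background, so the share that rose was near the background. The heat shock cochaperone Dnajb1 rose by 0.48 (SE 0.07), and Xbp1, a factor of the unfolded protein response, fell by 0.32 (SE 0.08). The counted calls of Hspa1a and Trib3 were each lost without any 1 of 4 extracts. Of 22 secreted inflammatory genes 1 rose and 4 fell at the probe set of highest mean (background 5.88% and 4.35%), while over all 46 of their probe sets 4 rose and 5 fell. The chemokine Cxcl5 fell by 0.43 (SE 0.09), and the riser was the cytokine Lif (0.43, SE 0.12), whose call was lost without any 1 of 4 extracts, with an adjusted p of up to 0.0926. The counted calls of Cxcl12, Igfbp5 and Plat were lost without any 1 of 6, of 5 and of 5 extracts.

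Cell type markers were checked against the fibroblast label. Of 17 fibroblast markers 15 were measured on array A, and their summed level, given as the mean log2 value over the list, lay between 11.13 and 11.29 in unirradiated and between 11.03 and 11.16 in irradiated samples. At the probe sets of highest mean, the 3 that fell were Pdgfra, Pdgfrb and Prrx1, described above, and 0 rose. At an unadjusted p under 0.05, 2 were higher. Over all 26 probe sets of these markers 5 fell and 0 rose, among them the Col3a1 probe set described above. A Vim probe set of lower mean also fell, a call lost without any 1 of 3 extracts, with an adjusted p of up to 0.102. The Vim probe set of highest mean gave -0.02 and was not called. Of the markers of blood cells and macrophages, 4 of 15 passed the filter on array A. Ptprc, Cd68, Cd14 and Itgam did not, nor did the endothelial markers Pecam1, Cdh5 and Kdr or the epithelial markers Epcam and Cdh1 on that array. An Epcam probe set of array B passed, at 9.39 to 9.48 without and 9.14 to 9.46 with irradiation. Krt19 on array A measured 7.72 to 8.22 and 7.85 to 8.39. The means without irradiation were 4.76 for Krt18 and 5.0 for Krt5 on array A, and 4.69 for Ocln on array B. None of these epithelial markers was called. The mean level over the 4 measured blood markers was 6.36 to 6.54 without and 6.29 to 6.54 with irradiation. For the 3 endothelial and pericyte markers it was 8.22 to 8.75 and 8.32 to 8.9, and for the 3 epithelial markers 5.77 to 6.14 and 5.98 to 6.03. For the 6 neural and glial markers it was 6.94 to 7.19 and 6.99 to 7.29. In these 4 lists limma called 0 genes on array A, with 2 higher and 1 lower at an unadjusted p under 0.05. Acta1, the measured muscle marker, was 9.52 to 10.95 and 9.62 to 10.99. Of 5 cartilage, bone and fat markers Pparg, the adipocyte regulator, was called (-0.53, SE 0.15, adjusted p = 0.0324), and that call was lost without any 1 of 6 extracts, with an adjusted p of up to 0.126.

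The effect was also set beside the same comparison in Oct-1 mutant cells, to ask where the wild type response differed. The mutant comparison by itself called 983 probe sets of array A higher and 719 lower (7.24% and 5.3%, together 12.5%). Of array B it called 155 higher and 70 lower (1.15% and 0.518%, together 1.67%). For the difference between the irradiation effects, mutant minus wild type, limma called 0 probe sets on either array (0.0%). At an unadjusted p under 0.05 there were 387 for array A (2.85%) and 398 for array B (2.95%). The smallest adjusted p was 0.657 and 0.758. Of the 1389 probe sets called in wild type cells on array A, 1378 had the same sign in mutant cells, and of the 243 on array B, 239 did. The median rise of those called higher on array A was 0.39 in wild type and 0.35 in mutant cells, and the median fall of those called lower was -0.39 and -0.35. The wild type medians belong to the comparison that chose the probe sets, so this difference in size is not a test.

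By the smallest unadjusted p, the widest departures were given as values. Ptprv, a phosphatase known as a p53 target in mouse, differed by 0.18 (SE 0.16) in wild type cells, at 4.65, 4.44, 5.04 and 4.9 and then 5.06, 4.89, 4.79 and 5.01, and by 1.42 in mutant cells, where its means were 6.84 and 8.26. Its wild type means of 4.76 and 4.94 lay under 4.97, the lowest mean kept on array A, so that it passed the filter through the mutant samples and its wild type difference was read at the bottom of the scale. The difference of 1.24 (SE 0.23) had an unadjusted p of 4.84e-05 and an adjusted p of 0.657. A Klf4 probe set gave 1.23 in wild type and 0.6 in mutant cells, a difference that was not called (-0.62, SE 0.15, adjusted p = 1.0). Mdm2 (1.74 and 1.6), Pmaip1 (2.14 and 2.43), 1700007K13Rik (4.35 and 4.32), Plk1 (-1.57 and -1.86) and Cenpf (-2.05 and -2.42) are given with the wild type value first. Foxm1 gave -0.3 in wild type and -0.75 in mutant cells. Across probe sets the effects in the 2 genotypes correlated at 0.81 on array A and 0.67 on array B, as a description, since probe sets share samples and are not replicates.

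**Figure D4:**
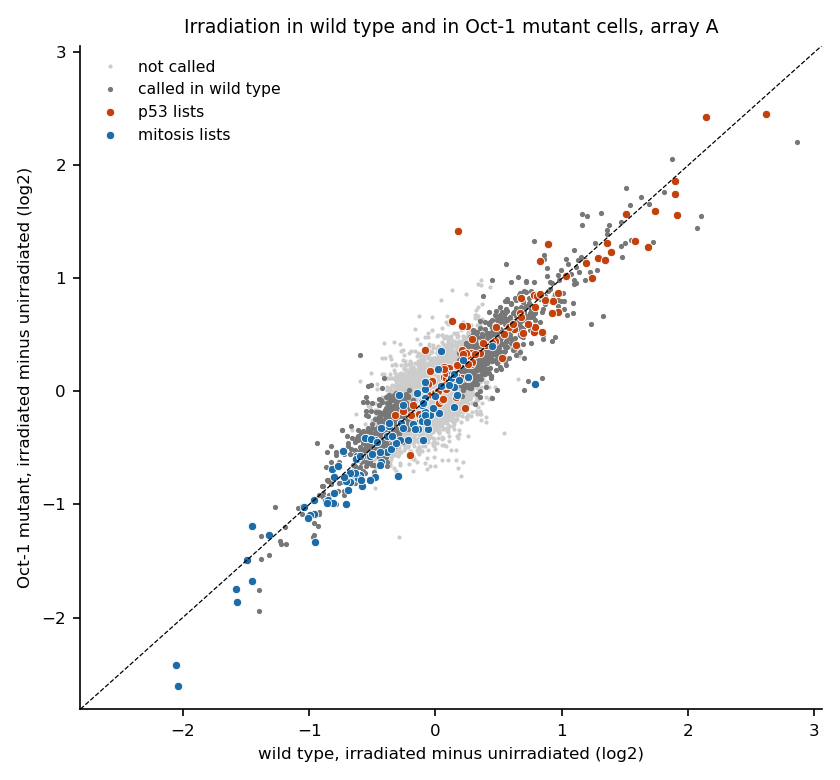
Log2 difference between irradiated and unirradiated samples in Oct-1 mutant cells (vertical axis) against that in wild type cells (horizontal axis) for the tested probe sets of array A, with the p53-list genes in orange and the mitosis-list genes in blue. The dashed line marks equal effects; Ptprv, the orange point highest above it, lies at 0.18 in wild type cells, where its levels were at the bottom of the scale, and at 1.42 in mutant cells.

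Each number run holds 2 wild type extracts of each group. The calls were made from both runs together, so the sign and size of called probe sets within a run are a description and no check of them. The medians of those called higher were 0.42 in the first run and 0.35 in the second on array A, and 0.71 and 0.53 on array B. Those called lower gave -0.43 and -0.37, and -0.74 and -0.54. Both irradiated samples lay beyond both unirradiated ones in both runs for 13.5% of tested probe sets upward and 10.4% downward on array A, and for 7.17% and 4.11% on array B. Fitted within the first run alone, 314 probe sets rose and 248 fell on array A, with 68 and 39 for array B. Within the second run alone the numbers were 206 and 151, and 7 and 2. Mdm2 rose by 2.13 in the first run and by 1.35 in the second, and 1700007K13Rik by 4.65 and 4.04.

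**Figure D5:**
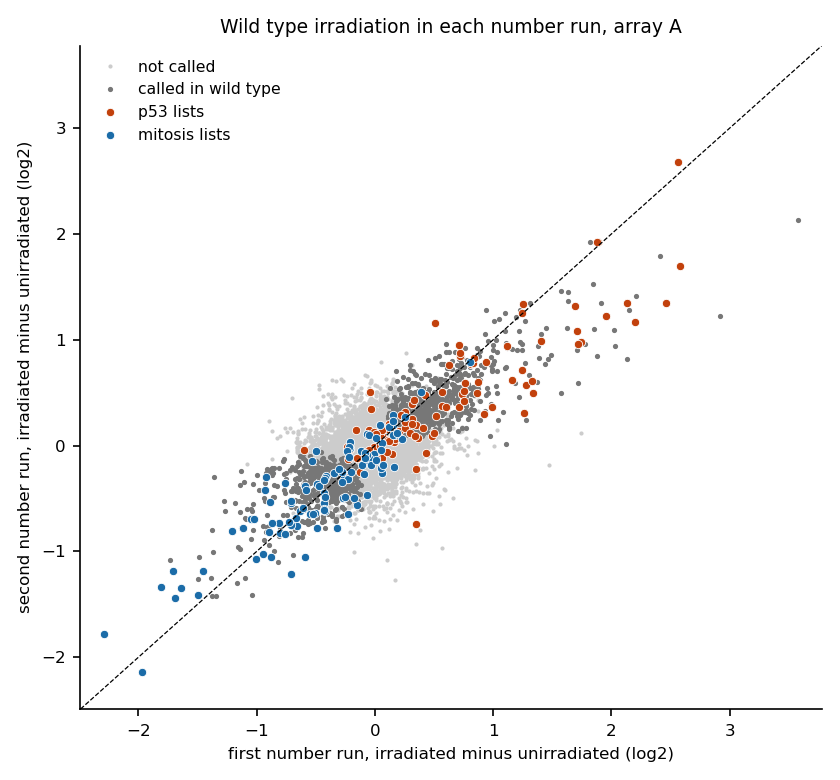
Log2 difference between irradiated and unirradiated wild type samples in the second number run (vertical axis) against the first (horizontal axis) for the tested probe sets of array A, 2 samples per group in each run. The correlation over all 13576 tested probe sets, which share samples, was 0.61.

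The array types read partly the same genes, with 2083 genes measured on both and 100 probe sets in common. Of 247 genes called on array A that had another probe set on array B, 190 had the same sign there. All 34 genes called on both array types had the same sign on both.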

How the data were processed

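Total RNA of early passage mouse embryonic fibroblasts was measured on 2 Affymetrix array types. The deposited values are log2 levels, 1 per probe set and sample, made by the authors with a method not given in the sources used here. Their scale was judged from the values, whose lowest and highest were 0.265 and 15.75 for array A, and 0.097 and 15.51 for array B. No normalization was added. Groups came from the labels.

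Control probe sets were left out, and probe sets with a mean over the 16 samples of an array type at or above its 40th percentile were tested. The model was limma 3.58.1 in R 4.3.3 (lmFit, eBayes with a mean-variance trend), with 4 group means and the number run of the titles as an additive term, fitted to all 16 samples of an array type, so that mutant samples add to the estimate of spread. The contrast was irradiated minus unirradiated wild type, SE is the moderated model's standard error, and adjusted p-values are Benjamini-Hochberg values over an array type. The model fit, and not the list, promoter or outlier steps, was tested on simulated data.

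Genes were named from the platform annotation, which gives 1 gene for 20393 of 22690 probe sets of array A and for 14674 of 22575 of array B, several for 691 and 245, and none for 1606 and 7656. A gene in a list is represented by its probe set of highest mean. Promoter sequences are RefSeq's, build GRCm38.p6. The members, the gene lists and the tests were chosen with earlier results of these data known. The text names the 12 largest rises and falls of array A and the 8 of array B that separate in both number runs, up to 8 called genes per list and array type, a fixed set of p53 and cell cycle genes, and the 5 smallest p in each direction for the difference between genotypes, as far as they add to the account. List members named as not called were chosen after their values were seen.

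Wild type samples of the same replicate number deviated together (correlation of deviations 0.59 to 0.67 for array A, 0.45 to 0.6 for array B). But so did those of the same run and another replicate number (0.62 to 0.68 and 0.43 to 0.58), so the run and not the replicate number was used. Alternatives were other blocks, filters, normalizations and variance models, each run alone, and leaving out each extract.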

Additional observations from a re-analysis of the deposited data

Results flagged for a closer look

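In 484 groups of 4 samples, 1 group for each condition of each named probe set, 19 had a sample set apart from the other 3 by Dixon's criterion, where chance gives about 1 in 20 groups. All values are log2 levels. Among p53 genes of array A these were Klf4 at 9.84 in irradiated replicate 4, Pmaip1 at 6.96 and Usp7 at 10.2 in irradiated replicate 1, Dapk1 at 8.44 in irradiated replicate 2, Pml at 9.48 in irradiated replicate 4 and Polk at 8.87 in irradiated replicate 3. Among mitosis genes they were Aspm at 8.07 in unirradiated replicate 2 and Depdc1a at 7.1 in unirradiated replicate 4 on array A, and Espl1 at 8.04 in unirradiated replicate 2 and Sgo2a at 7.16 in irradiated replicate 2 on array B.

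The others on array A were Msmo1 at 11.11 in irradiated replicate 2, Tfdp1 at 10.3 in irradiated replicate 4, Ndufa8 at 11.25 in irradiated replicate 3, Tmem19 at 6.32 in unirradiated replicate 3 and Irf1 at 8.53 in unirradiated replicate 4. On array B they were 1700007K13Rik at 3.06 in unirradiated replicate 2, Wnt9a at 5.58 in unirradiated replicate 4, Mapkapk3 at 4.48 in unirradiated replicate 1 and Golga7b at 3.32 in irradiated replicate 1.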

How the results depend on the processing

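The groups are balanced over the runs, so other blocks, filters and variance models over both runs leave a probe set's difference unchanged. Its sign could not differ there, and a kept sign is no check. Under quantile normalization, and with array medians set equal, differences could change, and every called probe set kept its sign. Counts are given as higher and lower. Without the number run in the model array A gave 317 and 204 and array B 82 and 22, and with wild type samples alone and no block 237 and 149, and 41 and 11. As a random block it gave 28 lower on array B. Within the first run there were 314 and 248 on array A and 68 higher on array B, and within the second 206 and 151, and 7 and 2. Quantile normalization gave 95 lower on array B. The cause of these shifts was not tested, but the fits within a run use fewer samples.

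With the replicate number as a block in place of the run, array A gave 802 and 609, of which 753 and 561 were among the main calls, and array B 190 and 53, with 170 and 49 shared. Of the named calls 2 on array A (Gstm1, Pdgfc) and 6 on array B (Rnf168, Meis2, Dnmt1, Gins2, Dusp4, Arhgef39) were lost under this block. Without the run 57 named calls of 168 on array A and 16 of 46 on array B were lost.

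Leaving out 1 extract gave 537 to 911 higher and 381 to 643 lower for array A. Array B gave 114 to 238 and 33 to 79. Wild type irradiated replicate 1 moved counts by over 1.5 times, with 381 lower on array A, and 114 and 33 on array B, as did irradiated replicate 2, to 123 higher on array B. For the difference between genotypes the counts were 0 to 0 (array A) and 0 to 1 (array B). Signals near the bottom of the scale, as for 1700007K13Rik, Arap2 and Tap1 without irradiation and for Ptprv in all wild type samples, limit what their folds mean.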
